A study of Homo sapiens with 6 samples.

Results

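Semaphorins are guidance ligands that signal through plexin receptors, and 10 genes of this system were described here in the human colorectal cancer line HCT116 after silencing of the long non-coding RNA AC010789.1. The 10 genes were taken by symbol: 5 ligands (SEMA3C, SEMA3F, SEMA4B, SEMA4C and SEMA4D), 3 plexins (PLXNA1, PLXNB1 and PLXNB2) and the 2 neuropilins NRP1 and NRP2. All 10 were among the 18768 genes with counts, through 106 of the 98886 transcript rows. RNA sequencing compared 3 libraries of cells in which an siRNA targeted AC010789.1 (the group Si-AC010789.1) with 3 libraries of cells given a negative control siRNA (the group control). Every library was labelled as HCT116 cells cultured in DMEM with serum, and the libraries differed by the siRNA. The age of the cells and the time from transfection to harvest were not given for these libraries. AC010789.1 itself was not analysed here, so these values hold no check of its silencing. The question asked of these 10 genes was whether their RNA levels differed between the siRNAs.

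Class 3 semaphorins are secreted and bind a neuropilin, which holds the ligand while an A-type plexin passes the signal into the cell. Class 4 semaphorins are membrane proteins that bind B-type plexins directly, and some are cut from the surface to act at a distance. Plexins act on small GTPases and so on adhesion and the cytoskeleton. In colorectal epithelium and its tumours the system is known for effects on migration, invasion and vessel growth. Neuropilins also bind VEGF family growth factors, and B-type plexins form complexes with the receptor kinases MET and ERBB2.

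The deposited counts of a library summed to between 11277222 and 13443866, and 3 counts corresponded to 0.223 to 0.266 CPM, the counts of a feature relative to the library size. The labelled cell type was checked against epithelial markers. The keratin genes KRT8 (444 to 850 CPM) and KRT18 were abundant, but EPCAM lay between 3.10 and 5.59 CPM. CDH1, which codes for E-cadherin, averaged 0.688 CPM in control and 0.908 CPM in Si-AC010789.1, and CDH17 and LGALS4 lay under 3 counts on average. KRT19, CDX1, CDX2 and VIL1 had no row among those analysed. The fibroblast markers summed to 59.6 to 69.2 CPM in control and 63.8 to 68.6 CPM in Si-AC010789.1, with COL1A1 at 43.3 CPM and 44.5 CPM. The immune markers summed to 6.90 to 9.05 CPM in control and 3.72 to 6.31 CPM in Si-AC010789.1, most of it CD68, and the endothelial markers to at most 2.51 CPM in any library. Most defining epithelial markers were thus low or without a row in libraries labelled as an epithelial line, and the part of this in the values below was not tested.

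Levels between genes were compared per length, on the TPM scale: the counts of each transcript were divided by its length, summed per gene and scaled within a library. A TPM value thus depends on how a gene's counts were divided among transcripts of unlike length. Among the 10 genes, the most abundant RNA was that of PLXNB2, a receptor of class 4 semaphorins, at 156 TPM over the 6 libraries (range 121 to 195). SEMA3F followed at 105 TPM (97.3 to 113), and SEMA3C at 55.1 TPM (45.6 to 61.3). PLXNB1, the receptor of SEMA4D, stood at 43.3 (31.7 to 53.7), SEMA4B at 32.7 (26.2 to 39.1) and PLXNA1, which works with neuropilins, at 22.7 (20.5 to 25.3). SEMA4C stood at 17.4 (15.2 to 20.2), NRP1 at 10.2 (9.02 to 11.9), SEMA4D at 9.27 (7.41 to 11.7) and NRP2 at 6.40 (5.03 to 8.14). The library ranges of neighbours overlapped for SEMA3C and PLXNB1, for PLXNB1 and SEMA4B, for NRP1 and SEMA4D, and for SEMA4D and NRP2, though within libraries the first of each pair was the higher in 5, 4, 4 and 6 of 6, respectively. For SEMA4D and NRP2 the order was thus the same in every library, and for the other pairs it was not. Per length, PLXNB2 exceeded PLXNB1 by 4.05 ± 1.03 times in control and 3.38 ± 0.319 times in Si-AC010789.1 (mean ± SD, n = 3). The highest ratio, 5.22, was that of control replicate 2, where PLXNB1 had its lowest TPM value. The PLXNB1 gene sum there, 55.4 CPM, lay between those of the other control libraries. The neuropilins were the scarcest receptors among the 10 genes, and NRP1 exceeded NRP2 by 1.54 ± 0.218 times in control and 1.71 ± 0.184 times in Si-AC010789.1 (mean ± SD, n = 3).

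**Figure D1:**
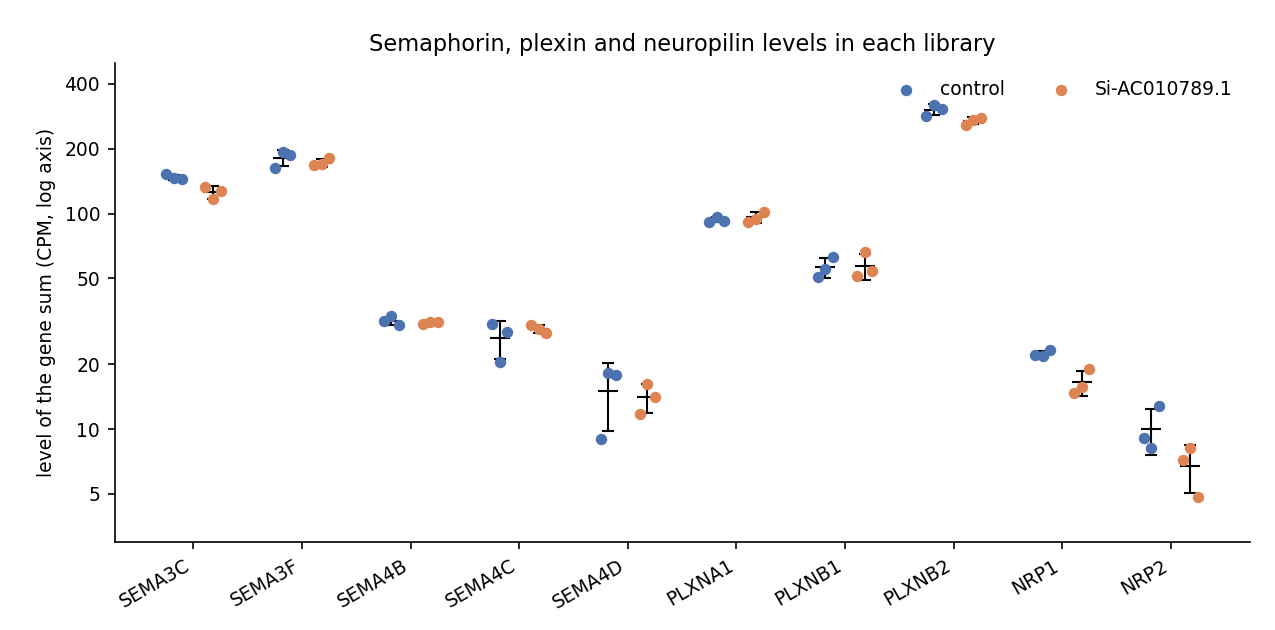
Level of the 10 gene sums in each library in CPM on a log axis, with control in blue and Si-AC010789.1 in orange; the points are the 3 libraries of a group, and the bar is the mean with its SD. NRP1 lay between 21.8 and 23.2 CPM in control and between 14.8 and 18.9 CPM in Si-AC010789.1. SEMA3F, SEMA4B, SEMA4C, SEMA4D, PLXNA1, PLXNB1 and NRP2 overlapped between the groups.

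None of the 10 gene sums passed an adjusted p of 0.05 in the edgeR quasi-likelihood test over 13764 genes (0 of 10, where 0.944% of all tested genes were called). All 10 passed the filter on low counts. At an unadjusted p under 0.05 stood 3 of 10, namely NRP1, SEMA3C and PLXNB2, each with the lower level in Si-AC010789.1, against 17.2% of all genes in either direction and 8.91% in the lower direction. The same 3 genes had every Si-AC010789.1 library below every control library, as did 12.9% of all genes. In either direction, the groups lay apart for 25.1% of all genes. The log2 fold change (Si-AC010789.1 against control) was below zero for 7 genes and above zero for 3, with a median of -0.086 over the 10 genes and of -0.00059 over all genes tested. DESeq2, run as an alternative, also called 0 of 10, where 5.47% of its genes were called.

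The neuropilins gave the fold changes farthest from zero among the 10 genes. All levels are from bulk RNA, in which fewer cells of a type and less RNA per cell cannot be told apart. Coordinates are those of GENCODE v29 on GRCh38. NRP1 (chr10:33177492-33336262, minus strand), the coreceptor for class 3 semaphorins and VEGF, had 21.98, 21.8 and 23.2 CPM in control and 14.8, 15.7 and 18.9 CPM in Si-AC010789.1. The groups lay apart, at 22.3 ± 0.755 CPM in control and 16.5 ± 2.19 CPM in Si-AC010789.1 (mean ± SD, n = 3). Its log2 fold change was -0.44 with a standard error (SE) of 0.113, and the edgeR adjusted p was 0.135. The exact two-sided permutation test gave p = 0.1, the smallest value that 3 against 3 libraries allow. With any 1 library left out, the log2 fold change of NRP1 lay between -0.55 and -0.36.

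NRP2 (chr2:205681990-205798133, plus strand), the coreceptor preferred by SEMA3F and a receptor for VEGFC, had 9.13, 8.14 and 12.8 CPM in control and 7.16, 8.15 and 4.86 CPM in Si-AC010789.1. Control replicate 2 and Si-AC010789.1 replicate 2 were nearly equal, so the groups overlapped. The means were 10.0 ± 2.43 CPM and 6.72 ± 1.69 CPM (SD, n = 3), the log2 fold change was -0.57 (SE 0.252) and the edgeR adjusted p was 0.314. Leaving out 1 library moved the NRP2 log2 fold change between -0.74 and -0.36. The 2 neuropilins together had 31.1, 29.9 and 35.9 CPM in control and 21.9, 23.9 and 23.8 CPM in Si-AC010789.1. Their summed levels did not overlap, which is a description of the libraries, without a test. Of all single genes, 25.1% had groups apart in either direction.

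**Figure D2:**
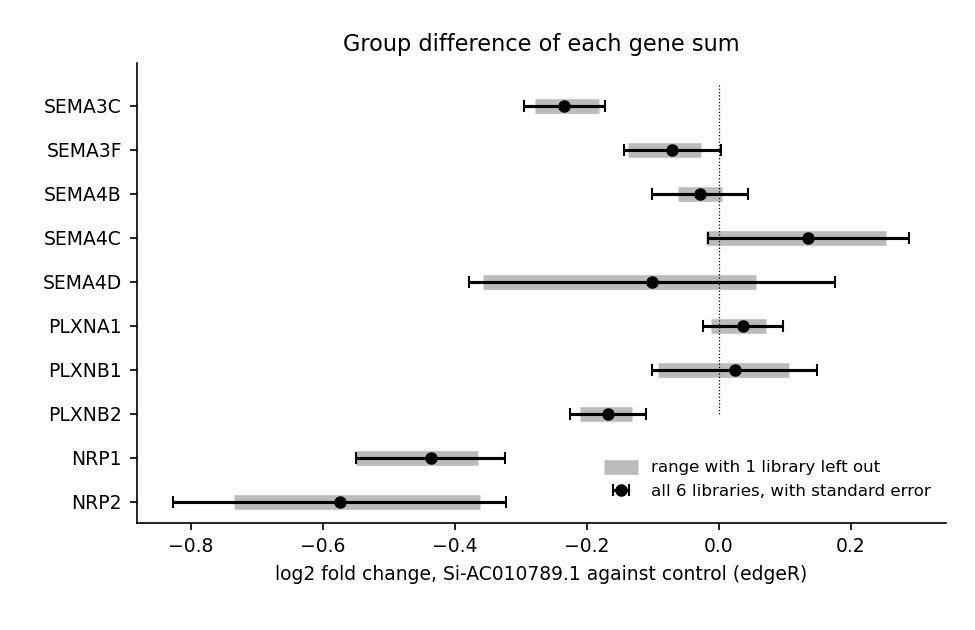
Log2 fold change of each gene sum from edgeR, Si-AC010789.1 against control; points are the fits over 6 libraries with their standard errors, and grey bars span the fits with 1 library left out. SEMA3C, SEMA3F, PLXNB2, NRP1 and NRP2 stayed below zero in every such fit, while the grey bars of the other 5 genes crossed zero.

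Among the ligands, SEMA3C gave the smallest adjusted p. SEMA3C (chr7:80742538-80922359, minus strand), a secreted semaphorin that signals through both neuropilins, had 152, 146 and 145 CPM in control and 133, 117 and 127 CPM in Si-AC010789.1. Every Si-AC010789.1 library lay below every control library, at 148 ± 3.92 CPM in control and 126 ± 8.27 CPM in Si-AC010789.1 (mean ± SD, n = 3). The log2 fold change was -0.23 (SE 0.0612) with an edgeR adjusted p of 0.138, and leaving out 1 library gave -0.28 to -0.18. SEMA3F (chr3:50155045-50189075, plus strand), a secreted repellent that uses NRP2, had 163, 192 and 188 CPM in control and 167, 169 and 181 CPM in Si-AC010789.1. These groups overlapped, with a log2 fold change of -0.07 (SE 0.0736) and an edgeR adjusted p of 0.682. Leaving out 1 library gave -0.14 (without control replicate 1) to -0.027 (without control replicate 2).

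The class 4 ligands overlapped between the groups. SEMA4B (chr15:90160604-90229679, plus strand), a membrane semaphorin, had 31.7, 33.3 and 30.5 CPM in control and 30.7, 31.3 and 31.6 CPM in Si-AC010789.1 (log2 fold change -0.03, SE 0.0722). SEMA4C (chr2:96859716-96870757, minus strand), a ligand of PLXNB2, had 30.7, 20.6 and 28.4 CPM in control and 30.3, 29.1 and 28.0 CPM in Si-AC010789.1 (log2 fold change 0.14, SE 0.152). Control replicate 2 was the lowest of the 6 SEMA4C values, and without it the log2 fold change was -0.020. SEMA4D (chr9:89360787-89498130, minus strand), the ligand of PLXNB1 that is shed from the cell surface, had 9.04, 18.2 and 17.9 CPM in control and 11.8, 16.1 and 14.2 CPM in Si-AC010789.1. Its replicates differed by 2.0 times in control, the widest spread of the 10 gene sums, and the log2 fold change of -0.10 had an SE of 0.277. The edgeR adjusted p values of SEMA4B, SEMA4C and SEMA4D were 0.881, 0.706 and 0.890. Summed over the 5 ligands the level was 402 ± 13.4 CPM in control and 373 ± 9.42 CPM in Si-AC010789.1 (mean ± SD, n = 3), most of it SEMA3C and SEMA3F.

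Among the plexins, PLXNB2 (chr22:50274979-50307627, minus strand) had 285, 319 and 307 CPM in control and 259, 273 and 279 CPM in Si-AC010789.1. The groups lay apart by a narrow margin, from 279 CPM in the highest Si-AC010789.1 library to 285 CPM in the lowest control library. The means were 304 ± 17.5 CPM and 270 ± 10.5 CPM (SD, n = 3), the log2 fold change was -0.17 (SE 0.0573) and the edgeR adjusted p was 0.219. With protein-coding models alone the log2 fold change of PLXNB2 was -0.082 (SE 0.178, edgeR adjusted p 0.874). PLXNA1 (chr3:126988594-127037392, plus strand) had 91.7, 96.4 and 92.8 CPM in control and 91.3, 94.7 and 102 CPM in Si-AC010789.1, with a log2 fold change of 0.04 (SE 0.0609) and an edgeR adjusted p of 0.809. PLXNB1 (chr3:48403854-48430051, minus strand) had 50.8, 55.4 and 62.6 CPM in control and 51.2, 66.3 and 54.3 CPM in Si-AC010789.1, with a log2 fold change of 0.02 (SE 0.125) and an edgeR adjusted p of 0.944. Both genes had overlapping groups, and their log2 fold changes took either sign when 1 library was left out.

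**Figure D3:**
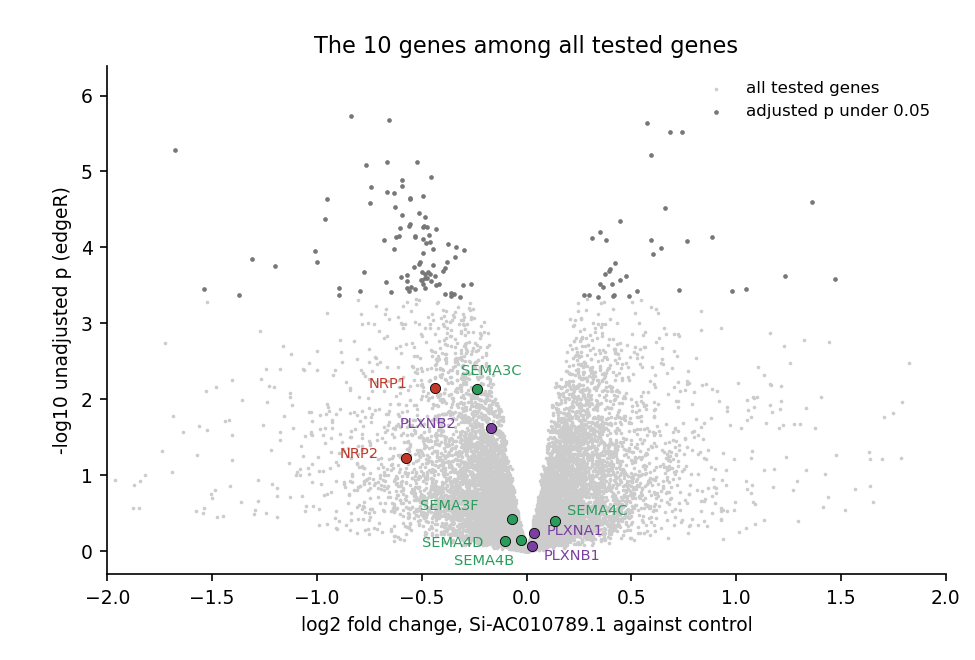
Unadjusted edgeR p of all 13764 tested genes as -log10 against the log2 fold change, Si-AC010789.1 against control, with ligands in green, plexins in purple, neuropilins in red and called genes in dark grey; 21 genes beyond a log2 fold change of 2 in either direction are not drawn. All 10 genes lay below the called genes, and NRP1, SEMA3C and PLXNB2 stood highest among them.

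Each gene sum was then taken apart into its transcripts, for which the files give separate counts. The models were those of GENCODE v29. Of the 106 transcripts, 44 passed the filter and 0 were called by edgeR, where 0.0135% of all 44297 tested transcripts were called, and the smallest adjusted p was 0.676. An unadjusted p under 0.05 with a log2 fold change beyond 1 was reached by 2 of the 44, PLXNA1-202 and SEMA4C-201, against 3.5% of all tested transcripts. DESeq2 called 2, PLXNA1-202 and SEMA3F-206, where it called 0.925% of its transcripts. In a test of transcript usage within a gene, 0 of the 8 genes with at least 2 tested transcripts were called, where 1.28% of 9046 genes were. SEMA3C and SEMA4D had 1 tested transcript each and could not enter that test.

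SEMA3C was carried by 1 model. SEMA3C-201, of 751 residues, took 98.1% to 99.5% of the gene's counts, with 1702, 1903 and 1906 counts in control and 1511, 1455 and 1554 in Si-AC010789.1. Its log2 fold change of -0.24 (SE 0.0823) was close to that of the gene sum, with an edgeR adjusted p of 0.818 among transcripts. The models SEMA3C-202 and SEMA3C-204, both annotated as targets of nonsense-mediated decay, had at most 27 counts in any library.

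SEMA3F was divided among 3 coding models, of which 1 holds a cassette exon that the others leave out. SEMA3F-201 (785 residues) holds an exon of 93 bases, exon 6 of 19, at chr3:50175096-50175188 on the plus strand, which lies in the coding sequence and which SEMA3F-202 (686 residues) and SEMA3F-206 (754 residues) leave out. SEMA3F-201 and SEMA3F-206 differ in the 93 coding bases of this exon, and SEMA3F-201 and SEMA3F-202 in 297 coding bases. The joined sequences with and without the exon are shown because they mark SEMA3F-201, with the 15 bases after the junction in capitals.
SEMA3F-201: ggacgccgcgcccagGCCACACCATGGACC
SEMA3F-202 and SEMA3F-206: ggacgccgcgcccagGATTACATCTTCTAC
The first sequence occurred in SEMA3F-201 and in no other annotated transcript, and the second in 5 SEMA3F transcripts. SEMA3F-201 had 376, 1512 and 251 counts in control and 335, 511 and 1665 in Si-AC010789.1. SEMA3F-202 had 980, 991 and 1685 counts in control and 1526, 1562 and 523 in Si-AC010789.1. Control replicate 2 and Si-AC010789.1 replicate 3 were thus the libraries with most SEMA3F-201, at 59.3% and 74.5% of the gene's counts, and the other 4 had 10.0% to 24.1%.

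SEMA3F-206 had 453, 0 and 511 counts in control and 0, 1 and 0 in Si-AC010789.1. Control replicates 1 and 3 gave it 24.6% and 20.4% of the gene's counts, while control replicate 2 was at 0 like 2 of the Si-AC010789.1 libraries. It failed the filter of the edgeR fit, and DESeq2 gave it an adjusted p of 0.0301. The usage call for SEMA3F depended on the filter: the adjusted p was 1.000 in the fit as designed, without this model, 0.0362 where transcripts needed 1 CPM on average (2.03% of genes called) and 0.00072 with no filter (3.56% called). The model was also tested in the fits that left out 1 Si-AC010789.1 library, where the adjusted p was 0.123, 0.173 and 0.0891. The test by limma on the log ratio of a transcript to the rest of its gene called 0 of the 8 genes, where 0.951% of genes were called. It used the filter of the edgeR fit, so SEMA3F-206 was left out and limma could not decide on this model.

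PLXNA1 was divided between its only coding model and a retained intron model. PLXNA1-202 starts within an intron of PLXNA1-201 and keeps its last 1555 bases (chr3:127026385-127027939, plus strand). The sequences ahead of the same exon are shown to mark what separates the models, with the intron's or the preceding exon's bases in capitals and the shared exon in lower case.
PLXNA1-202: CCGCCACCCCCGCAGgagtgcgctggggag
PLXNA1-201: TATAAGTTCCTCAAGgagtgcgctggggag
PLXNA1-202 had 266, 24 and 313 counts in control and 16, 20 and 13 in Si-AC010789.1. It stood at 25.7% and 25.3% of PLXNA1 counts in control replicates 1 and 3, and at 1.03% to 1.88% in control replicate 2 and the 3 Si-AC010789.1 libraries. The groups did not overlap for this model, but control replicate 2 lay much nearer to Si-AC010789.1 than to the other control libraries. The share of all transcripts with groups apart was not computed, and among genes it was 25.1% in either direction. Its log2 fold change was -3.59 (SE 0.985), with an edgeR adjusted p of 0.676 and a DESeq2 adjusted p of 0.0359. In the usage test PLXNA1 had an adjusted p of 0.117, and 0.0164 without control replicate 2, where 2.38% of genes were called. With any other library left out, the usage adjusted p lay between 0.253 and 0.347, and limma on log ratios gave 0.898. PLXNA1-201, of 1896 residues, had 768, 1253 and 923 counts in control and 1027, 1163 and 1246 in Si-AC010789.1 (log2 fold change 0.28, SE 0.165).

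SEMA4C was mostly counted on a retained intron model in the control libraries and in Si-AC010789.1 replicate 3. SEMA4C-206 keeps 499 bases of an intron at chr2:96866432-96866930, and the gene lies on the minus strand. The bases ahead of the shared exon are in capitals.
SEMA4C-206: TGCTTACCCCTGCAGagctggccacggtag
SEMA4C-201: CAGTGTCTTCTGGGGagctggccacggtag
SEMA4C-206 had 282, 164 and 306 counts in control and 83, 91 and 310 in Si-AC010789.1. The coding model SEMA4C-201, of 833 residues, had 16, 1 and 9 counts in control and 240, 211 and 10 in Si-AC010789.1. Si-AC010789.1 replicates 1 and 2 gave SEMA4C-201 69.2% and 58.0% of the gene's counts, and Si-AC010789.1 replicate 3 gave it 2.89%, within the control range of 0.366% to 4.62%. The log2 fold change of SEMA4C-201 was 4.14 (SE 1.47), with an edgeR adjusted p of 0.819. The usage test of SEMA4C gave an adjusted p of 0.855. With protein-coding models alone, the SEMA4C log2 fold change was 2.36 and the edgeR adjusted p 0.384. Over all genes, retained intron models took 5.86% to 6.30% of a library. Of SEMA4C counts they took 93.9%, 75.1% and 96.6% in control (mean 88.5%). In Si-AC010789.1 they took 29.7%, 36.5% and 95.7% (mean 54.0%), so replicate 3 lay within the control range.

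**Figure D4:**
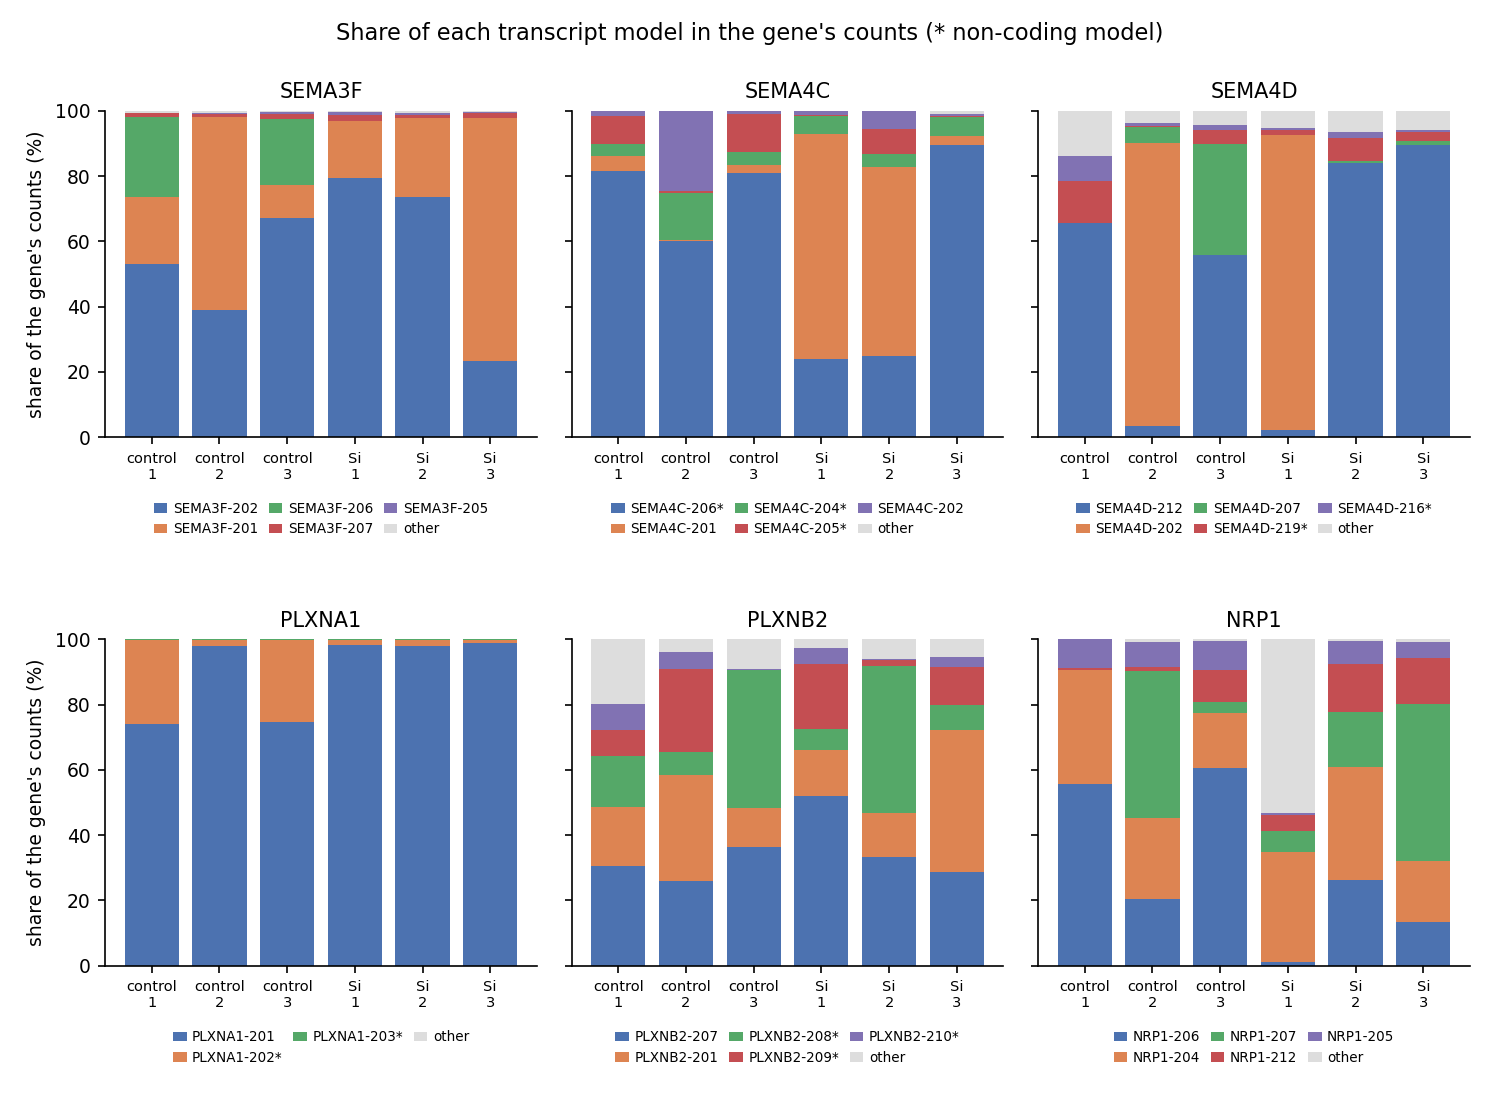
Share of each transcript model in the counts of its gene, in percent, for 6 genes and the 6 libraries; the 5 models with the highest mean CPM are coloured, the rest are grey, and an asterisk marks a model annotated as non-coding. Libraries of 1 group often differed more than the groups did, as for SEMA3F-201 at 59.3% in control replicate 2 and 10.0% in control replicate 3.

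The remaining genes showed the same kind of spread between models of like sequence. SEMA4D-202 had 0, 209 and 0 counts in control and 122, 0 and 0 in Si-AC010789.1, and SEMA4D-212 was high where SEMA4D-202 was at 0, with 67, 8 and 133 counts in control and 3, 170 and 157 in Si-AC010789.1. Both code for 862 residues and share every coding base, so the 2 models differ in untranslated bases alone. SEMA4B-201 had 0, 0 and 76 counts in control and 153, 142 and 0 in Si-AC010789.1, and SEMA4B-202 had 135, 136 and 157 in control and 43, 69 and 166 in Si-AC010789.1. These models also share every coding base, and the retained intron model SEMA4B-204 took a further 9.36% to 37.7% of SEMA4B counts.

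In PLXNB2, the 1838-residue models PLXNB2-201 and PLXNB2-207 share 6328 bases, and 7 and 55 bases are their own. PLXNB2-201 had 586, 1386 and 479 counts in control and 417, 467 and 1503 in Si-AC010789.1, and PLXNB2-207 had 980, 1096 and 1493 in control and 1537, 1135 and 985 in Si-AC010789.1. The retained intron model PLXNB2-208, which keeps an intron of 66 bases (chr22:50281500-50281565), had 496, 296 and 1734 counts in control and 195, 1536 and 267 in Si-AC010789.1. It was highest in 1 library of each group, at 42.4% and 44.9% of PLXNB2 counts. In PLXNB1, PLXNB1-201 and PLXNB1-202 both code for 2135 residues and share every coding base. PLXNB1-202 had 153, 327 and 240 counts in control and 156, 0 and 132 in Si-AC010789.1, while PLXNB1-201 had 155, 245 and 242 in control and 135, 506 and 131 in Si-AC010789.1. PLXNB1-204, of 1952 residues, was at 0 in 1 library of each group and between 82 and 210 counts in the rest.

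Replicate spread was therefore measured for gene sums and transcripts alike, as the highest over the lowest library of a group, with 3 counts as the floor, for features averaging at least 50 counts. For the 10 gene sums the median was 1.23 and none exceeded 10-fold, beside a median of 1.23 and 0.583% over 10-fold for all 11668 genes. For the 28 transcripts of the 10 genes the median was 9.14 and 14 exceeded 10-fold (50%), beside 2.23 and 19.8% for all 23193 transcripts. How the authors divided reads shared by several models was not given in the sources used here, and its part in this spread was not tested. A value of 1 transcript here is therefore less firm than a gene sum.

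**Figure D5:**
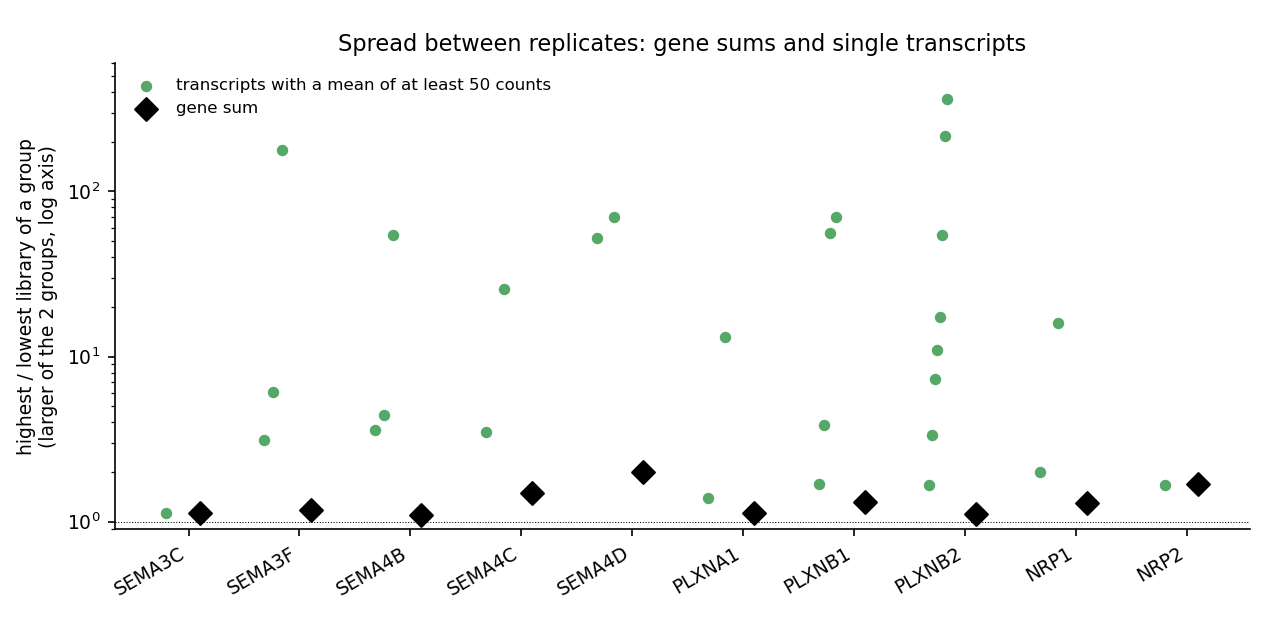
Highest over lowest library within a group, the larger of the 2 groups, on a log axis, for each gene sum (black diamonds) and for its transcripts averaging at least 50 counts (green points). The gene sums lay at or under 2.0, while transcripts of PLXNB2 reached 364 and SEMA3F-206 reached 178.

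The neuropilin models were also grouped by where the coding sequence stops, since models that stop early lack the membrane-spanning segment and code for soluble forms. The last 30 coding bases of each end, with the stop codon in capitals, separate them.
NRP1-206: aatacacagagtacttattcggaggcaTGA
NRP1-204: gacagcaccatacaatcaggtatcaaaTAA
NRP1-205: ttcgagagccaaaggctaggattatctTAA
NRP1-212: aggaagacaggaatatggcatgaaaagTGA
NRP2-204: aaccaccaaaagtgctgctccgaggcaTGA
NRP2-201: ctagagcaagaccgtggctcgcactgcTGA
The full-length end of NRP1 (NRP1-201 and NRP1-206, 923 residues, and NRP1-207, 735 residues) had 12.2, 14.3 and 14.9 CPM in control and 8.47, 6.79 and 11.7 CPM in Si-AC010789.1. These groups lay apart, with means of 13.8 ± 1.37 and 8.97 ± 2.47 CPM (SD, n = 3, exact permutation p = 0.1). The single models within it did not keep an order, since NRP1-206 had 138, 59 and 187 counts in control and 2, 52 and 31 in Si-AC010789.1, NRP1-207 had 0, 130 and 11 and then 11, 33 and 113, and NRP1-201 had counts in Si-AC010789.1 replicate 1 alone (84). The short end of NRP1-204 (644 residues) had 7.71, 5.43 and 3.90 CPM in control and 4.98, 5.43 and 3.56 CPM in Si-AC010789.1, and its groups overlapped. The end of NRP1-205 (704 residues) had 1.95, 1.66 and 2.10 CPM in control and 0.0873, 1.12 and 0.891 CPM in Si-AC010789.1, apart between the groups (exact permutation p = 0.1), with 1 count in Si-AC010789.1 replicate 1. Any groups that lie apart give this exact permutation p, so it adds nothing to their separation. Of all genes, 25.1% had groups apart in either direction, and no such share was taken over coding ends. NRP1-212 (597 residues) had at most 2.67 CPM and overlapped.

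NRP2 has 2 ends that both follow the membrane-spanning segment and differ in the tail inside the cell. The end of NRP2-204 (931 residues, with NRP2-203 and NRP2-205) had 4.52, 6.26 and 7.20 CPM in control and 4.89, 4.55 and 3.24 CPM in Si-AC010789.1. The groups overlapped, with an exact permutation p of 0.3. The end of NRP2-201 (906 residues, with NRP2-202) had 2.84, 0 and 3.98 CPM in control and 0.611, 2.72 and 0 CPM in Si-AC010789.1. It was without counts in 1 library of each group, where up to 3 counts (0.226 CPM in control replicate 2 and 0.243 CPM in Si-AC010789.1 replicate 3) would be allowed by counting error.

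The study centres on the microRNA miR-432-3p as a partner of AC010789.1, so seed matches were counted as a feature that the choice of genes did not use. The mature sequence, from RefSeq (GRCh38.p14, chr14:100884544-100884564, plus strand), is given with the seed, bases 2 to 8, in capitals.
hsa-miR-432-3p: cUGGAUGGcuccuccaugucu
The sense strand of annotated 3′ UTRs was searched for CCATCCA or CATCCAA, which overlap by 6 bases. A match was present in 4 of the 10 genes, NRP1, NRP2, SEMA4B and SEMA4D, and in 19.16% of 12348 tested genes with a 3′ UTR. A gene was counted if any of its annotated models held a match, whatever the level of that model. Among models with rows here, a match lay in NRP1-212, NRP2-201, SEMA4B-201, SEMA4B-202, SEMA4D-201 and SEMA4D-207. It lay in none of NRP1-206, NRP2-204, SEMA4D-202 and SEMA4D-212. NRP1-212 had at most 33 counts in a library, SEMA4D-201 at most 1 and SEMA4D-207 at most 81. NRP2-201 had counts in control replicate 3 and Si-AC010789.1 replicate 2 alone. A match is a stretch of letters and not a site shown to be used.

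Other genes of the system were taken from lists, and the counts are from the same edgeR fit. Of 21 further semaphorin and plexin genes, 18 had rows, 14 were tested and 0 were called (0.944% of all genes), with 2 at an unadjusted p under 0.05 (17.2% of all genes). SEMA3B, a secreted semaphorin near SEMA3F on chromosome 3, had 114 ± 12.02 CPM in control and 91.4 ± 0.739 CPM in Si-AC010789.1 (mean ± SD, n = 3, log2 fold change -0.31, edgeR adjusted p 0.138). PLXNA2, an A-type plexin, had a log2 fold change of -0.23 and an edgeR adjusted p of 0.279. The median log2 fold change of the 14 was -0.014.

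Of 36 genes that pass or shape the plexin signal, 31 were tested and 0 called (0.944% of all genes), with 6 at an unadjusted p under 0.05 (17.2% of all genes), 4 higher and 2 lower in Si-AC010789.1. PAK1, a kinase activated by RAC1, had 17.5 ± 1.02 CPM in control and 11.5 ± 1.03 CPM in Si-AC010789.1 (mean ± SD, n = 3, log2 fold change -0.60, edgeR adjusted p 0.0659). RAC1, a small GTPase, had 164 ± 10.8 CPM in control and 187 ± 5.81 CPM in Si-AC010789.1 (mean ± SD, n = 3, log2 fold change 0.19, edgeR adjusted p 0.187). PAK1 and RAC1 each had groups that did not overlap, a state shared by 25.1% of all genes. Of 8 proteases that cut semaphorins or their receptors, 6 were tested and 0 called, beside 0.944% of all genes. The smallest adjusted p in that list was 0.395, for ADAM17 (log2 fold change 0.12), followed by ST14 at -0.14.

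Of 19 genes whose products bind or share receptors with the 10 genes, 13 were tested and 1 was called, lower in Si-AC010789.1, as were 0.676% of all genes. At an unadjusted edgeR p under 0.05 stood 6 of the 13 (17.2% of all genes). Of these, 4 were lower in Si-AC010789.1 (8.91% of all genes) and the rest higher. MET, the receptor kinase that associates with B-type plexins, had 306, 341 and 313 CPM in control and 247, 255 and 254 CPM in Si-AC010789.1. It fell by 0.34 on the log2 scale (SE 0.0521, edgeR adjusted p 0.0469), from 320 ± 18.3 to 252 ± 4.26 CPM (SD, n = 3). The call was lost in every fit that left out 1 library, and also with the replicate block, no filter, upper-quartile factors or protein-coding transcripts only. MET stayed called with a mean of at least 1 CPM (edgeR adjusted p 0.0457) and by DESeq2 (adjusted p 0.000231). TGFBR2, a TGF-beta receptor that binds neuropilins, had a log2 fold change of -0.36 with an edgeR adjusted p of 0.110. DESeq2 also called TGFBR2 (adjusted p 0.0214) and PAK1 (adjusted p 0.0110), and it called 5.47% of all its genes. The median log2 fold change of the 13 genes was -0.17.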

How the data were processed

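RNA of HCT116 cells was measured in 6 libraries, 3 per group, grouped by the sample labels. The authors deposited 1 table of raw counts, unnormalized whole numbers with a row for each Ensembl transcript. The submitters' processing notes name CASAVA 1.8, TopHat2 2.0.6 and the builds mm10 and GRCh38, with no role. The paper names Cuffdiff for differential expression and TruSeq paired-end libraries. The counting program, annotation and strand setting were not given in the sources used here. A row was present only for transcripts with at least 3 counts over the 6 libraries.

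Transcripts were joined to GENCODE v29 (83 identifiers were not matched, and 99.9069% to 99.9414% of a library's counts were kept) and summed per gene. The 10 genes and the lists were chosen with earlier results of these data known. Genes, and separately transcripts, were fitted over the whole table with edgeR 4.0.16 in R 4.3.3 (TMM factors 0.993 to 1.01, which also scale the CPM values, filterByExpr at a count of 10 and a total of 15, quasi-likelihood test, Benjamini-Hochberg adjustment, called under 0.05). Usage was tested with diffSpliceDGE and a Simes p per gene. Exact permutation tests were two-sided. The labels do not say whether replicates were separate cultures, and the paper speaks of biological repeats that may stem from different cell generations. P-values measure only the spread between these libraries. Named transcripts were the 3 with the highest mean CPM per gene and tested ones with an unadjusted p under 0.05 and a log2 fold change beyond 1 in either direction; NRP1-201, NRP1-205, NRP1-212, NRP2-202 and NRP2-205 were named after their values were seen, for their coding ends, and PLXNB2 models in the spread plot likewise. From the lists, called genes and the 2 with the smallest p were named.

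Alternatives were no filter, a mean of at least 1 CPM, upper-quartile factors, the replicate number as a block, DESeq2 1.42.0, protein-coding transcripts only, each library left out, and limma 3.58.1. Scripts were tested on simulated data: genes with a simulated log2 change of 1 were called in 45.92% and of 2 in 89.8% of cases over 13631 genes. Transcripts with a log2 change of 6 were called in 52.5% of cases over 40641 transcripts, and of 2 in 1.111%. The usage test called 47.37% of genes with a change of 6 and 1.01% with a change of 2, and 33 of its 79 calls were false. Limma on log ratios had 3 false calls of 24, but called only 22.11% of genes with a change of 6 and 0% with a change of 2. Simulated transcripts varied independently of each other. Antisense genes overlap exons of SEMA3F (110 bases), NRP1 (561) and NRP2 (147) and had no rows here. Floors cover counting error only. Replicate pairs of a group differed beyond sampling noise (mean chi-square per gene 14.54 to 18), so none was counted as a duplicate.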

Additional observations from a re-analysis of the deposited data

How the results depend on the processing

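The count of 0 of the 10 gene sums called was the same in all 12 alternatives, DESeq2 included, and the log2 fold changes of SEMA3C, SEMA3F, PLXNB2, NRP1 and NRP2 kept their sign in all 12, PLXNB2 at -0.082 with protein-coding transcripts only. SEMA4B, SEMA4C, SEMA4D, PLXNA1 and PLXNB1 changed sign in at least 1 alternative, with log2 fold changes of -0.10 to 0.14 in the fit as designed. SEMA3F, at -0.07 there, did not. SEMA4B was 0.12 with protein-coding transcripts only and 0.0045 without control replicate 2, SEMA4C was -0.020 without control replicate 2, and PLXNA1 was -0.011 without Si-AC010789.1 replicate 3. SEMA4D was 0.056, 0.039 and 0.0081 without control replicate 2, control replicate 3 and Si-AC010789.1 replicate 1. PLXNB1 was -0.054 with protein-coding transcripts only, -0.043 without control replicate 1 and -0.092 without Si-AC010789.1 replicate 2. With 1 library left out, the ranges were -0.061 to 0.0045 for SEMA4B, -0.020 to 0.25 for SEMA4C, -0.36 to 0.056 for SEMA4D, -0.011 to 0.071 for PLXNA1 and -0.092 to 0.11 for PLXNB1. The count of 1 called gene in the 4 lists, MET, was 0 with no filter, upper-quartile factors, the replicate block or protein-coding transcripts only. It was 3 with DESeq2 (MET, PAK1, TGFBR2), where 5.47% of all its genes were called. With 1 library left out, where the fits have fewer samples, it was 0 in every fit. The count of 0 transcripts called was 2 with DESeq2 (0.925% of all its transcripts called) and 0 in the other 10 alternatives. The count of genes called for transcript usage was 1 (SEMA3F) with no filter or a mean of at least 1 CPM, where SEMA3F-206 was tested. It was 0 to 2 with 1 library left out, the 2 being SEMA3F and PLXNA1 without control replicate 2 (2.38% of genes called). The limma test on log ratios, chosen after seeing the data, called 0 of the 8 genes it could test (0.951% of genes called), with SEMA3F-206 left out by the filter. Beyond these constructions the cause was not tested. Same-numbered libraries did not deviate together (correlations 0.090, 0.0027 and 0.00066), so the numbers were not taken as pairs, and with the replicate block 0 of the 10 genes, 0 of their transcripts and 0 of their usage tests were called.
At this depth NRP2, with 60 to 170 counts a library, and SEMA4D, with 102 to 241, had the widest standard errors among the gene sums. With 3 libraries a group, permutation p-values could not fall below 0.1, and a p that missed the threshold does not show that levels were equal.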
